A study of Mus musculus with 24 samples.

Results

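Cultured astrocytes from the mouse cortex, glial cells that supply neurons and clear transmitter from synapses, were exposed to 2 Gy of X-rays or mock-irradiated, and their mRNA was sequenced 24 h later. The comparison uses 8 of the 24 libraries of the series, 4 after 2 Gy and 4 after 0 Gy, and all genes. Libraries of the same replicate number (1 to 4) formed a pair. Both groups were wild-type C57BL/6J cells of the first passage, pooled from all late-gestation embryos of 1 pregnant mouse per isolation. They were seeded 3 days before exposure, and the mock group differed only in that the X-ray tube stayed off. The libraries held 14742855 to 27850546 counts, and 15892 of 49315 genes passed the filter on low counts. Levels are given as CPM, the reads of a gene relative to all reads of its library, after TMM scaling. Genes with an adjusted p under 0.05 were called up- or downregulated, from edgeR's quasi-likelihood fit blocked on the replicate number.

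X-rays break DNA, and the kinase ATM then stabilises the transcription factor p53. This factor raises the cell cycle inhibitor p21 (*Cdkn1a*) and, through p21, keeps the E2F factors and the DREAM complex in a state that represses genes of DNA replication and mitosis. p53 also raises genes of apoptosis, of DNA repair and of redox metabolism, and astrocytes are known to resist radiation-induced apoptosis better than neuronal precursors do.

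At 24 h after 2 Gy, 1037 genes were upregulated, which is 6.53% of the genes tested, and 1063 were downregulated (6.69%). Of the 68 genes that the study tabulated for this comparison, 66 were among the downregulated and 2, *Svop* and *Abhd11os*, among the upregulated. Outside its tables lie 1035 of the genes that rose and 997 of those that fell. The tabulated genes all have a log2 fold change of at least 1 in size, whereas the calls here have no limit on size. Of the genes called here that changed at least 2-fold, 30 that rose and 33 that fell lie outside the tables. The rise was shallow. Only 32 upregulated genes (0.201% of those tested) changed at least 2-fold, against 97 downregulated ones (0.61%), and the median log2 fold change was 0.49 among the genes that rose and −0.49 among those that fell. The counts depended on the pairing. With no replicate block edgeR called 0 genes, with 570 at an unadjusted p under 0.05, and DESeq2 without the block called 2 higher and 98 lower. Single pairs moved them as well. Without replicate 2 the blocked test called 9 genes higher and 60 lower, without replicate 1 it called 34 and 109, without replicate 4 it called 106 and 139, and without replicate 3 it called 2674 and 2617. Scaled by library size alone, 61.6% of the called genes were higher, against 49.4% with TMM.

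The libraries expressed astrocyte genes and also markers of other cell types. Marker sums are given as CPM of the total counts, without TMM scaling. The 12 astrocyte markers summed to between 2410 and 3760 CPM, 11 of them passed the filter, and *Gjb6* stayed under 10 counts in every library. The 14 microglial markers summed to between 345 and 2680 CPM in the mock group and between 371 and 3040 CPM after 2 Gy. Pair 2 was the lowest at both doses, and the sum was higher after 2 Gy in all 4 pairs. The 14 markers of fibroblasts and vessels summed to between 3780 and 6960 CPM, and 10 of them passed the filter. The 12 markers of the oligodendrocyte lineage summed to between 484 and 624 CPM in the mock group and between 521 and 880 CPM after 2 Gy, and were again higher in all 4 pairs, but of the 8 members tested 4 had a positive and 4 a negative log2 fold change, with a median of 0.04 and 1 called higher, *Cnp* (0.49). No marker on these lists was at 0 in all libraries. Neuronal markers (16 genes, of which 9 passed the filter) summed to between 510 and 780 CPM. Under 10 counts in every library were *Slc17a6*, *Nefl* and *Rbfox3* of the neuronal list. The same held for *Enpp6*, *Mobp* and *Mog* of the oligodendrocyte lineage and for *Lum* and *Cldn5* of fibroblasts and vessels. Pair 3 stood apart at the short, GC-rich genes, where the irradiated library of that pair was often the highest of all 8.

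The metallothioneins, small cysteine-rich proteins that bind zinc and copper and scavenge radicals, were among the genes that rose outside the study's tables. *Mt2* (mm10 chromosome 8, 94172664 to 94173568, plus strand) stood at 74.3, 38.6, 163 and 103 CPM in mock libraries 1 to 4 and at 198, 115, 542 and 169 CPM in the irradiated libraries of the same numbers. Each irradiated library was above its partner, but the groups overlapped because pair 3 was high and pair 2 low at both doses. The log2 fold change was 1.36 (SE 0.157, edgeR adjusted p = 0.00298) and the unpaired exact permutation test gave p = 0.0571. *Mt1*, the next gene of the cluster, went from 206 ± 88.1 to 386 ± 216 CPM (SD, n = 4 per group), and its log2 fold change was 0.84 (SE 0.107, edgeR adjusted p = 0.00494). *Mt3*, the brain form of the same cluster and chosen after its values were seen, went from 378 ± 154 to 702 ± 428 CPM (SD, n = 4 per group), and its log2 fold change was 0.81 (SE 0.11, edgeR adjusted p = 0.00612). *Gm45774*, an RNA on the other strand that shares 432 exon bases with *Mt2*, rose by 0.88, and its reads cannot be separated from those of *Mt2*, because no source says whether strand was used.

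Other named genes that rose have unrelated roles. *Pcsk1n* encodes proSAAS, an inhibitor of a prohormone convertase. It stood at 22.5, 19.9, 58.0 and 31.7 CPM in the mock libraries and at 53.7, 59.9, 111 and 57.9 CPM after 2 Gy, a log2 fold change of 1.16 (SE 0.127, edgeR adjusted p = 0.0028). *Scand1* (SCAN domain protein, adjusted p = 0.00413 in edgeR) and *Prr7* (log2 fold change 1.11), which encodes a membrane protein of the postsynapse, were low genes with mock means of 12.8 ± 9.71 and 7.42 ± 5.56 CPM (SD, n = 4). *9530053A07Rik*, a gene without an assigned function, rose by 1.01 from 15.5 ± 5.37 CPM (SD, n = 4). *Matn4*, which encodes the matrix protein matrilin 4, rose by 0.94, *St14*, the membrane protease matriptase, by 0.86, and *Ckmt1*, the mitochondrial creatine kinase, by 0.85. For these last genes pair 2 was by far the highest at both doses, with 6.55 and 13.0 CPM for *Matn4* against 1.61 to 3.81 CPM in the other 6 libraries. *Fbxo2*, a brain-enriched F-box protein that binds glycoproteins, rose by 0.80 from 130 ± 48.7 CPM (SD, n = 4).

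*Jund*, a subunit of the AP-1 transcription factor, was at 48.8, 38.4, 142 and 63.2 CPM in the mock libraries and at 112, 100, 212 and 92.8 CPM after 2 Gy (log2 fold change 0.92, SE 0.148, edgeR adjusted p = 0.0112). *H2afj*, a histone H2A variant whose synthesis does not depend on replication, rose by 0.91, *Ccdc85b* by 0.92 and *Ino80b*, a subunit of the INO80 chromatin remodeller, by 0.81. *Romo1*, a protein of the inner mitochondrial membrane, rose by 0.85 and *Uqcr11*, a subunit of respiratory complex III, by 0.75. *Rplp2*, of the ribosomal stalk, rose by 0.76, *Grcc10* by 0.84 and *Nat14* by 0.83. The groups overlapped for each of these genes, and a rise in 4 of 4 pairs was a condition for naming genes by rank. In the irradiated library of pair 3 each of *Jund*, *H2afj*, *Ccdc85b*, *Ino80b*, *Romo1*, *Rplp2*, *Grcc10* and *Uqcr11* had its highest value. *Scand1*, *Pcsk1n*, *Matn4*, *Romo1*, *Jund*, *H2afj*, *Ckmt1* and *Ino80b* share exon bases with a gene on the other strand, *Rplp2* with a small nucleolar RNA, and ribosomal protein genes have many near-identical pseudogenes, so that some of their reads may have been assigned elsewhere.

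**Figure D1:**
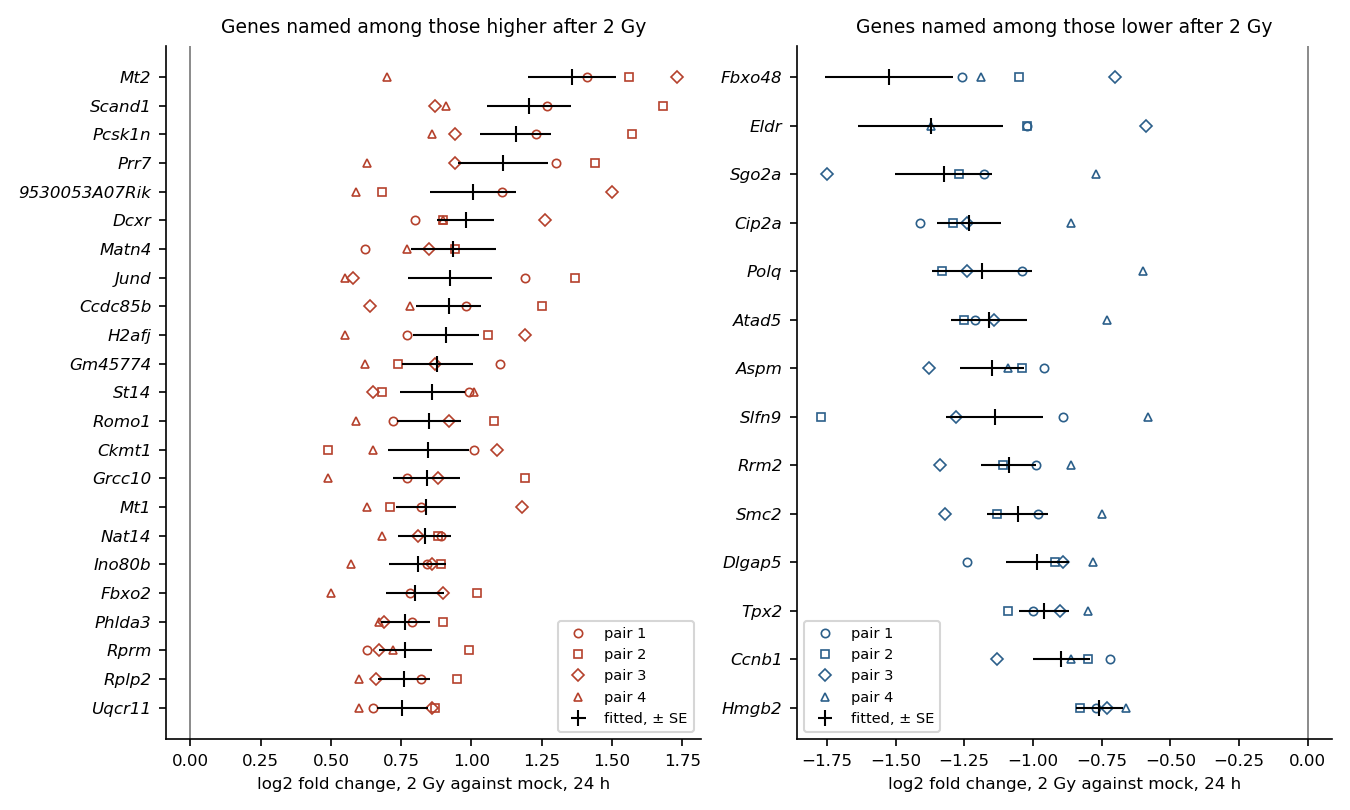
Log2 fold changes (2 Gy against mock, 24 h, x axis) of the genes named by rank of size or of adjusted p outside the study's tables, left those that rose and right those that fell. Open symbols are the 4 pairs, from CPM with 0.5 added, which draws genes near 1 CPM such as *Fbxo48* towards 0, and the black mark is the fitted value ± SE. One direction in all pairs was a condition for naming these genes, so that the symbols of each panel lie on 1 side of 0.

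Of 40 listed p53 targets, all tested, 14 were upregulated (35%, against 6.53% of all genes), 0 were downregulated and the others did not pass the test. The median log2 fold change of the list was 0.20, against 0.00 over all genes. The 4 irradiated libraries lay above the 4 mock libraries for 7 members, and for 1.11% of all genes. The genes that rose do different things downstream of p53, and they are taken here by role.

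*Cdkn1a*, which encodes the cell cycle inhibitor p21, stood at 272, 362, 376 and 272 CPM in the mock libraries and at 411, 576, 523 and 396 CPM after 2 Gy. The groups did not overlap, with a log2 fold change of 0.57 (SE 0.0845, edgeR adjusted p = 0.00929) and an exact permutation p of 0.0286, the smallest that 4 against 4 libraries allow. *Btg2*, which slows the cell cycle, went from 48.4 ± 10.2 to 73.4 ± 13.1 CPM (SD, n = 4 per group), and its log2 fold change was 0.61. *Rprm* (reprimo, a mediator of G2 arrest that was not on the list) rose by 0.77 from 30.9 ± 9.43 CPM (SD, n = 4). *Sesn2*, a sestrin that restrains the growth kinase mTORC1, rose by 0.54 and its groups did not overlap.

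Among genes of apoptosis, *Bbc3*, which encodes PUMA, was at 8.74, 12, 23.9 and 17.7 CPM in the mock libraries and at 25, 28.7, 39.3 and 25 CPM after 2 Gy. Every irradiated library was above every mock library, and the log2 fold change was 0.98 (SE 0.164, edgeR adjusted p = 0.0128). *Bax*, the pore former of the mitochondrial outer membrane, went from 83.4 ± 30.7 to 149 ± 63.1 CPM (SD, n = 4 per group), and its log2 fold change was 0.82 (SE 0.116, edgeR adjusted p = 0.00741). *Phlda3*, which inhibits the survival kinase Akt, was at 105, 133, 164 and 112 CPM in the mock libraries and at 183, 250, 263 and 179 CPM after 2 Gy. Its groups did not overlap, with a log2 fold change of 0.77 (SE 0.0862, edgeR adjusted p = 0.00284). *Pidd1* (0.52) and *Aen*, a nuclease (0.49), rose by less. *Fas* (88 CPM in the mock group, 91.6 CPM after 2 Gy) and *Pmaip1*, which encodes NOXA (0.15, adjusted p = 0.347 in edgeR), did not pass the test.

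*Dcxr*, which encodes dicarbonyl and L-xylulose reductase, had the smallest adjusted p of the named genes that rose outside the study's tables. Its levels were 27.6, 42.0, 25.3 and 21.2 CPM in the mock libraries and 48.4, 78.8, 61.3 and 40.1 CPM after 2 Gy, a log2 fold change of 0.98 (SE 0.102, edgeR adjusted p = 0.00248). Only the mock library of pair 2 reached into the range of the irradiated ones. *Ak1*, adenylate kinase, rose by 0.61, *Ephx1*, an epoxide hydrolase, by 0.57, *Abhd4* by 0.41 and *Ei24* by 0.32. *Gdf15*, a secreted stress hormone, rose by 0.69 from 11.3 ± 5.51 CPM (SD, n = 4). *Mdm2*, which encodes the ligase that degrades p53, stood at 218 CPM in the mock group and 209 CPM after 2 Gy (log2 fold change −0.09, adjusted p = 0.636 in edgeR). *Ccng1*, at 890 and 893 CPM, had a log2 fold change of 0.04 (adjusted p = 0.794 in edgeR). Leaving out a pair changed how many p53 targets were called. The count was 3 without replicate 1, 2 without replicate 2, 21 without replicate 3, when 2 members were also lower, and 4 without replicate 4.

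The promoters of *Cdkn1a* and *Bax* carried matches to the p53 decamer, and their 250 bases before the start are shown for that reason. Of the 14 called targets, *Ei24* held a match as well and the others held none in this window, while *Smc2*, which fell, and *Serpina3n* and *Celf5*, which rose and are not on the list, each held one. The sequences are those of RefSeq on GRCm38.p6, and capitals mark motif matches. For each gene the RefSeq start nearest its outermost annotated start was used, and other starts of the gene were not searched. In *Cdkn1a* (chr17:29090729-29090978, plus strand) the capitals are 2 p53 decamers (the repeat unit of a p53 response element), of which the first begins 73 bases and the second 51 bases before the start. In *Bax* (chr7:45466899-45467148, minus strand) the first run of capitals is a p53 decamer that begins 201 bases before the start and overlaps a CHR element (TTTGAA), and the second is an E-box (CACGTG).
Cdkn1a: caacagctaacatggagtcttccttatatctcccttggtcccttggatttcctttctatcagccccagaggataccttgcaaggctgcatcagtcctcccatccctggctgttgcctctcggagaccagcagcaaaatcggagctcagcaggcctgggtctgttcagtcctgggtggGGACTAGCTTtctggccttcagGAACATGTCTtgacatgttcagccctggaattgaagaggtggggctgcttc
Bax: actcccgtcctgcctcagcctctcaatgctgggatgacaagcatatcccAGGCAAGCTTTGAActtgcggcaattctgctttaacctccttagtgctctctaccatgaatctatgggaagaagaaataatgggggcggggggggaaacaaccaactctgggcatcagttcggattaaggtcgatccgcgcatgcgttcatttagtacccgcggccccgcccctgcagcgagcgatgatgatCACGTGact

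Of 75 nuclear genes of the respiratory chain, 17 were upregulated (22.7%, against 6.53% of all genes) and 0 downregulated, with a median log2 fold change of 0.27, and of 79 cytosolic ribosomal protein genes 13 were upregulated (16.5%) with a median of 0.17. *Uqcr11* and *Rplp2*, described above, are members. Without replicate 2, 0 genes of either list were called, and without replicate 3 the ribosomal genes split into 25 higher and 13 lower and the respiratory chain genes into 29 higher and 7 lower. After a GC and length correction, described further on, 7 respiratory chain and 6 ribosomal genes were called higher. With it 1.36% of all genes were. Of 30 genes of lysosome and autophagy 6 were upregulated (20%), among them *Map1lc3a* (0.54), *Sqstm1* (0.41) and *Ctsd* (0.34), and 0 downregulated. After the same correction 1 of them, *Npc2*, was called, and the median of the list went from 0.19 to 0.06.

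Of 26 interferon-stimulated genes 6 rose (23.1%, against 6.53% of all genes) and 1 fell (3.85%, against 6.69%), with a median log2 fold change of 0.17. *Isg15*, a ubiquitin-like modifier, was at 15.7, 3.30, 62.2 and 35.6 CPM in the mock libraries and at 32.1, 5.76, 77.2 and 45.5 CPM after 2 Gy, a log2 fold change of 0.59 (SE 0.135, edgeR adjusted p = 0.0278). *Tap1* and *H2-K1*, which load and present peptides, rose by 0.55 each, *Ifi27* by 0.58, *Bst2* by 0.48 and *Irf7* by 0.43, while *Ddx58*, which encodes the RNA sensor RIG-I, fell by 0.37. Pair 2, which had the lowest sum of microglial markers, was also the lowest for *Isg15*. The same held for *H2-D1*, a class I histocompatibility gene, which went from 172, 48.6, 506 and 344 CPM to 352, 83.4, 788 and 460 CPM, a log2 fold change of 0.72 (SE 0.11, edgeR adjusted p = 0.0104). The part of the microglial share in these values was not tested. Of the microglial markers themselves, *Trem2* (0.50) and *C1qa* (0.48) rose, *P2ry12* fell by 0.52 (with the GC and length correction *Trem2* alone of these was called), and *Csf1r* had a log2 fold change of −0.01 (adjusted p = 0.925 in edgeR).

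Of 35 genes of astrocyte reactivity 5 rose (14.3%, against 6.53% of all genes) and 3 fell (8.57%, against 6.69%), and with the GC and length correction 3 were higher and 0 lower. *Gfap*, the intermediate filament gene by which reactive astrocytes are usually recognised, was at 405, 413, 507 and 407 CPM in the mock libraries and at 508, 490, 786 and 482 CPM after 2 Gy, a log2 fold change of 0.36 (SE 0.0977, edgeR adjusted p = 0.0426), and with the correction it was 0.25 and no longer called (edgeR adjusted p = 0.189). Each irradiated library was above its partner, and the mock library of pair 3 reached into the irradiated range. *Serpina3n* (0.43), *H2-T23* (0.63) and *Cd14* (0.39) rose as well, while *Ptgs2* (−0.68), *B3gnt5* (−0.64) and *Cd44* (−0.44) fell. Of these, *Serpina3n* alone was called with the correction, and *H2-T23* (0.45, adjusted p = 0.0601 in edgeR) was lowest in pair 2, at 2.54 and 4.04 CPM, as was *Apoe*. *Apoe*, the main lipoprotein of astrocytes and also a gene of microglia, went from 2480, 492, 3400 and 2860 CPM to 4100, 931, 6490 and 3960 CPM, a log2 fold change of 0.76 (SE 0.114, edgeR adjusted p = 0.00968). Of the other lists, 4 of 20 senescence genes rose (20%: *Gdf15*, *Cdkn1a*, *Ccl5* and *Cdkn2b*) and *Lmnb1*, whose loss accompanies senescence, fell by 0.67. With the GC and length correction *Cdkn1a* and *Lmnb1* were still called, *Gdf15* (0.25, adjusted p = 0.222 in edgeR) was not, and the median of the list was 0.04. Beside shares of 6.53% higher and 6.69% lower over all genes, 2 of 19 NF-kB feedback genes and targets rose (10.5%) and 1 fell (5.26%), 2 of 25 genes of cholesterol synthesis rose and 2 fell (8% each), and 2 of 28 genes of the unfolded protein response rose (7.14%) and 1 fell (3.57%), which are shares near the background. Among 22 genes of homeostatic astrocytes 4 rose (18.2%), *Apoe*, *Mfge8* (0.40), *Mlc1* (0.39) and the astrocyte marker *Aldh1l1* (0.34), and *Slc4a4*, a bicarbonate transporter, fell by 0.45, and of these *Apoe* alone was called with the correction. Of 33 collagens 4 rose (12.1%, against 6.53% of all genes), with *Col18a1* at 0.61 and *Col5a3* at 0.47, and of 22 antioxidant genes 2 rose (9.09%, near the background), *Ftl1* (0.53), the ferritin light chain, and *Sod1* (0.44). With the correction 2 collagens, *Col18a1* and *Col1a2*, and 1 antioxidant gene, *Sod1*, were higher. Of 29 immediate early genes 4 rose (13.8%), *Jund*, *Btg2*, *Ier5* (0.48) and *Ier2* (0.40). With the GC and length correction 1 of these genes was higher, *Jund*, 2 others, *Klf2* (−0.59) and *Myc* (−0.45), were lower, and the median of the list turned from 0.10 to −0.09. Of 24 histone genes that depend on replication 3 rose (12.5%), *Hist1h4h* (0.80), *Hist1h4i* (0.73) and *Hist1h1c* (0.56), whose near-identical copies make their counts uncertain, and 0 were called with the correction (median −0.02).

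**Figure D2:**
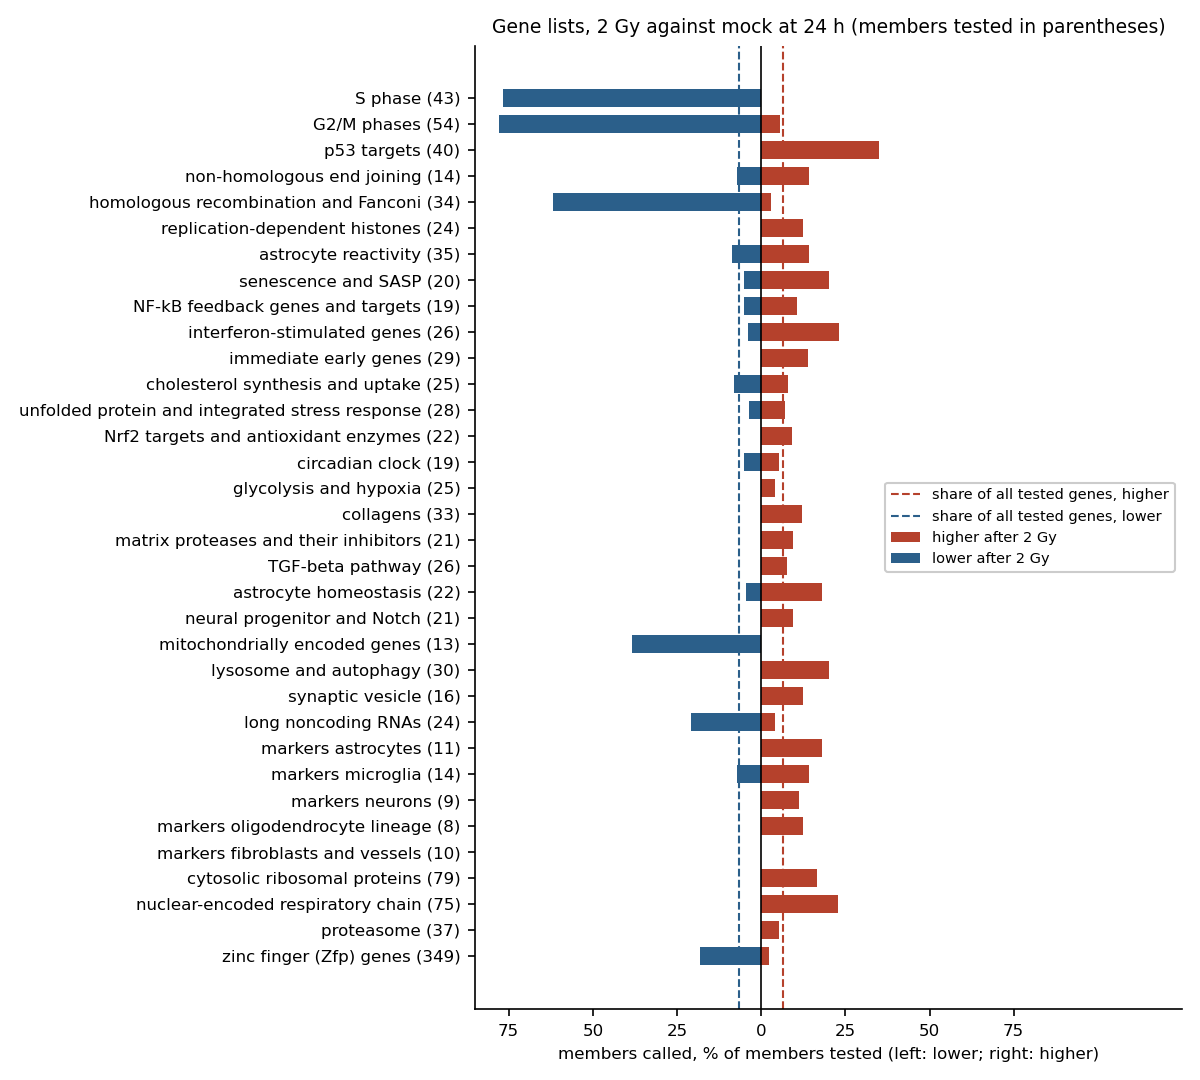
Share of tested members called lower (left, blue) or higher (right, red) after 2 Gy at 24 h in each gene list, in %, with the number of members tested in parentheses. The dashed lines mark 6.53% higher and 6.69% lower, the shares among all genes tested. The bars of the S phase, G2/M and homologous recombination lists reach to 76.7%, 77.8% and 61.8% on the left, and that of the p53 targets to 35% on the right.

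The genes that rose were GC-rich and short. Their median GC content was 56.6% and their median length 2569 bases, against 50% and 3872 bases over all genes tested, and the genes that fell had medians of 43.2% and 5860 bases. Across 14292 genes with at least 1 CPM, the log2 fold change correlated with GC content at r = 0.618 and with the log2 length at r = −0.325, and within single pairs the r with GC content was 0.586, 0.686, 0.287 and 0.453 for pairs 1 to 4. The genes share their libraries, so that these are descriptions. With splines for GC content and length in the blocked fit, 215 genes were higher (1.36%) and 250 lower (1.58%). Of the 1037 genes that rose, 155 were also called higher with the correction, and of the 1063 that fell, 209 were also called lower. All of the risers named by rank above were chosen among genes that passed both tests, and most of their values were smaller with the correction. *Mt2* went from 1.36 to 1.11, *Pcsk1n* from 1.16 to 0.86, *Dcxr* from 0.98 to 0.55, *Jund* from 0.92 to 0.42 and *Uqcr11* from 0.75 to 0.34, while *9530053A07Rik* was at 1.01 without and 1.03 with it. Of the p53 targets 8 were called with the correction, among them *Phlda3* at 0.35, *Cdkn1a* at 0.39, *Bax* at 0.44, *Ei24* at 0.43 and, not called without it, *Ccng1* at 0.38, and *Bbc3* (0.51, adjusted p = 0.0702 in edgeR), *Sesn2* (0.27, 0.155), *Pidd1* (0.29, 0.0994), *Gdf15* (0.25, 0.222), *Btg2* (0.58, 0.0571), *Ephx1* (0.40, 0.0552) and *Abhd4* (0.29, 0.0559) no longer were. The median of the p53 list was then 0.28, while it was 0.05 for the ribosomal and 0.14 for the respiratory chain genes. Of the interferon-stimulated genes 2 stayed past the threshold, *Tap1* and *Ifi27*.

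**Figure D3:**
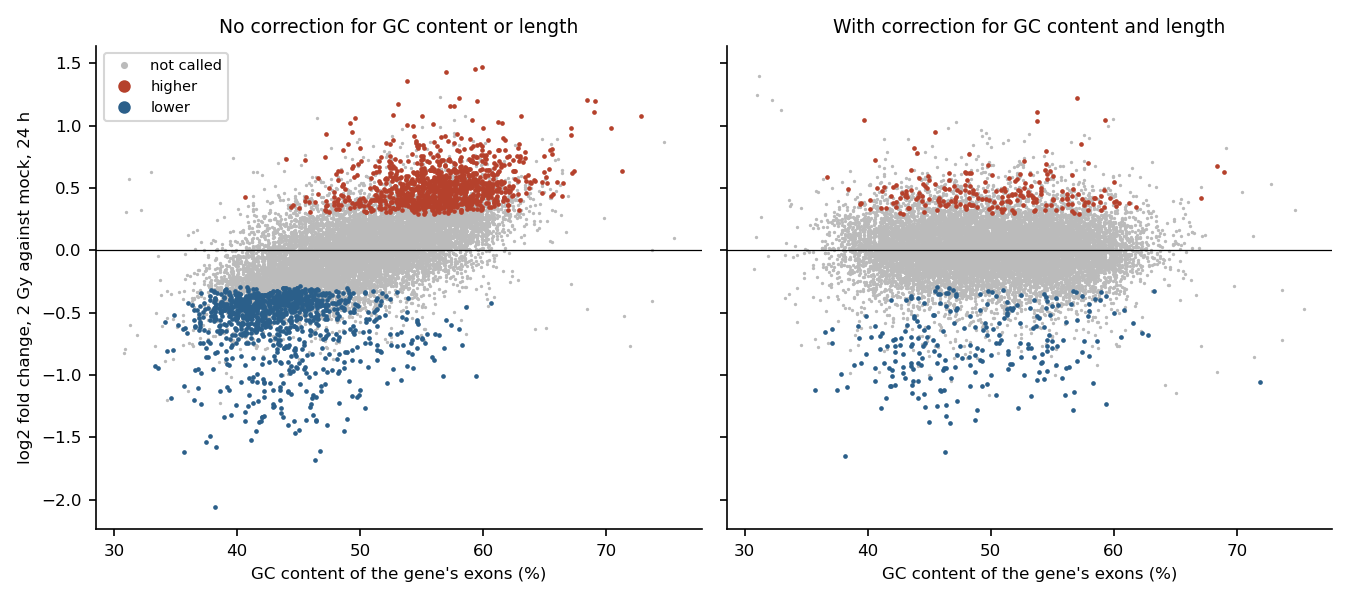
Log2 fold change (2 Gy against mock, 24 h, y axis) of each gene with at least 1 CPM against the GC content of its exons (%, x axis), without (left) and with (right) a correction for GC content and length. Red points are genes called higher, blue points genes called lower and grey points the rest. On the left the cloud climbs with GC content (r = 0.618), with most red points above 50%, while on the right r is −0.00175.

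Most genes of the replication and mitosis lists were downregulated. Of 43 S phase genes 33 were downregulated (76.7%, against 6.69% of all genes) and 0 upregulated, and of 54 G2/M genes 42 were downregulated (77.8%) and 3 upregulated (*Psrc1*, *Jpt1* and *Tubb4b*, a share of 5.56% against 6.53% of all genes). The medians of the log2 fold change were −0.76 and −0.75, and they were −0.65 and −0.60 for the members outside the tables. A lower level of such RNAs in bulk samples can come from fewer cycling cells or from less RNA per cell, which cannot be told apart here. Without replicate 2, the downregulated counts were 8 and 19, and without replicate 1 they were 17 and 23.

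*Tpx2*, which nucleates spindle microtubules, stood at 65.9, 73.2, 59.4 and 60.1 CPM in the mock libraries and at 32.6, 34.1, 31.5 and 34.2 CPM after 2 Gy, a log2 fold change of −0.96 (SE 0.0897, edgeR adjusted p = 0.00186). *Ccnb1*, which encodes cyclin B1, was at 33.3, 40.3, 28.9 and 27.8 CPM and fell to 20.0, 22.9, 12.9 and 15.1 CPM (log2 fold change −0.90, SE 0.104, edgeR adjusted p = 0.00298). *Hmgb2*, a chromatin protein of proliferating cells, was at 48.4, 39.1, 55.2 and 48.2 CPM and fell to 28.1, 21.7, 33.1 and 30.4 CPM (log2 fold change −0.76, SE 0.0857, edgeR adjusted p = 0.00284). For *Tpx2*, *Ccnb1* and *Hmgb2* every irradiated library was below every mock library, as it was for 1.81% of all genes. *Smc2*, a condensin subunit, fell by 1.06, *Dlgap5* and *Aspm*, both of the spindle, by 0.98 and 1.15, and *Sgo2a*, which protects cohesin at centromeres and shares exon bases with *Kctd18* on the other strand, by 1.33.

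Replication genes and some repair genes fell as well. *Rrm2*, the subunit of ribonucleotide reductase that limits nucleotide supply in S phase, went from 57.0, 114, 70.1 and 46.4 CPM to 28.5, 52.8, 27.4 and 25.2 CPM, a log2 fold change of −1.09 (SE 0.101, edgeR adjusted p = 0.00186). Only the irradiated library of pair 2 reached the mock range. *Atad5*, which unloads the sliding clamp PCNA, fell by 1.16, *Polq*, the polymerase of theta-mediated end joining, by 1.19 and *Cip2a*, an inhibitor of phosphatase PP2A, by 1.23. Of 34 genes of homologous recombination and the Fanconi pathway 21 were downregulated (61.8%, against 6.69% of all genes), among them *Brca2* (−0.77) and *Fanci* (−0.97), and 1, *Fance* (0.53), was upregulated. In this list 11 were lower and 0 higher with the GC and length correction, and 7 were lower without replicate 2. The 14 genes of non-homologous end joining did not fall as a list, with a median log2 fold change of −0.07. Of these, 2 were upregulated (14.3%, against 6.53% of all genes) and 1 downregulated (7.14%), and 0 were called with the correction. *Slfn9*, of the Schlafen family, fell by 1.14. With the correction for GC content and length, 23 S phase genes and 37 G2/M genes were still called lower, with medians of −0.64 and −0.73.

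The largest falls among the named genes belonged to a pair of neighbours. *Fbxo48*, an F-box gene (mm10 chromosome 11, 16951375 to 16954772, plus strand), and *Eldr*, a noncoding RNA (chromosome 11, 16935154 to 16951282, minus strand), start from the same stretch of DNA and run apart. Both were low. *Fbxo48* was at 2.87, 3.25, 0.761 and 2.07 CPM in the mock libraries and at 0.904, 1.32, 0.279 and 0.623 CPM after 2 Gy, a log2 fold change of −1.52 (SE 0.234, edgeR adjusted p = 0.0104). *Eldr* was at 1.65, 1.98, 2.28 and 2.59 CPM and at 0.557, 0.726, 1.35 and 0.697 CPM, a log2 fold change of −1.37 (SE 0.263, edgeR adjusted p = 0.0179), with no overlap of the groups.

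The promoters of *Hmgb2* and of *Fbxo48* are shown for the elements that cell cycle promoters often carry, a CCAAT box (CCAAT, the site of NF-Y) and a CHR element (TTTGAA or TTCGAA, through which DREAM acts). *Hmgb2* (chr8:57511593-57511842, plus strand) held 4 CCAAT boxes and, on one or the other strand, 2 CHR elements. *Fbxo48* (chr11:16951125-16951374, plus strand) held 1 CCAAT box, which begins 74 bases before its start. *Eldr*, whose window overlaps this stretch, reads the same box in the other direction, 23 to 19 bases before its own start, and has a CHR element that begins 104 bases before it. *Ccnb1* held 2 CCAAT boxes. RefSeq sequences of GRCm38.p6 are given, with the matches in capitals.
Hmgb2: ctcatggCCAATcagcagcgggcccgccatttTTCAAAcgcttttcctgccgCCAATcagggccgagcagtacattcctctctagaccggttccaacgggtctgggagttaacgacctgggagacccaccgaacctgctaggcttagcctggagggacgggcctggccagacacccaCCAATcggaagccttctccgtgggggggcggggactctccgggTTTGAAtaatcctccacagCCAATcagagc
Fbxo48: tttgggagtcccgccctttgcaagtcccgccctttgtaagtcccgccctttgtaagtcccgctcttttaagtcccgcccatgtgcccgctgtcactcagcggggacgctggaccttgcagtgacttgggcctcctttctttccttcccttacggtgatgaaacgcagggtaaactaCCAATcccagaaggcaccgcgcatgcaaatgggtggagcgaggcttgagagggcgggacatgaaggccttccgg

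Over all promoters the same motifs were counted on both strands of 300 bases, from 250 before to 50 after the start. This was done for the 11605 tested genes with a RefSeq promoter, each with the start nearest its outermost annotated start. A CHR element was found in 13.5% of all promoters, in 11.7% of those of genes that rose and in 21% of those of genes that fell, and in 48.2% of the 170 promoters of genes that fell with and without the GC and length correction. For the CCAAT box the shares were 38.3%, 41%, 44% and 64.7% in the same order. E2F motifs (GGCGGGAA, TTTGGCGC or TTTCGCGC) were in 5.42%, 6.64%, 10.6% and 15.9%. The p53 decamer, searched in its usual degenerate form, was in 6.7% of all promoters, in 7.35% of those of genes that rose and in 10.5% of the 124 promoters of genes that rose with and without the correction. AP-1 sites (TGANTCA) were in 5.03%, 4.98% and 8.06% of these, CRE sites (TGACGTCA) in 3.14%, 3.32% and 1.61%, and E-boxes (CACGTG) in 9.75%, 11% and 8.87%. A CHR match can share bases with other motifs, as in *Bax*.

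**Figure D4:**
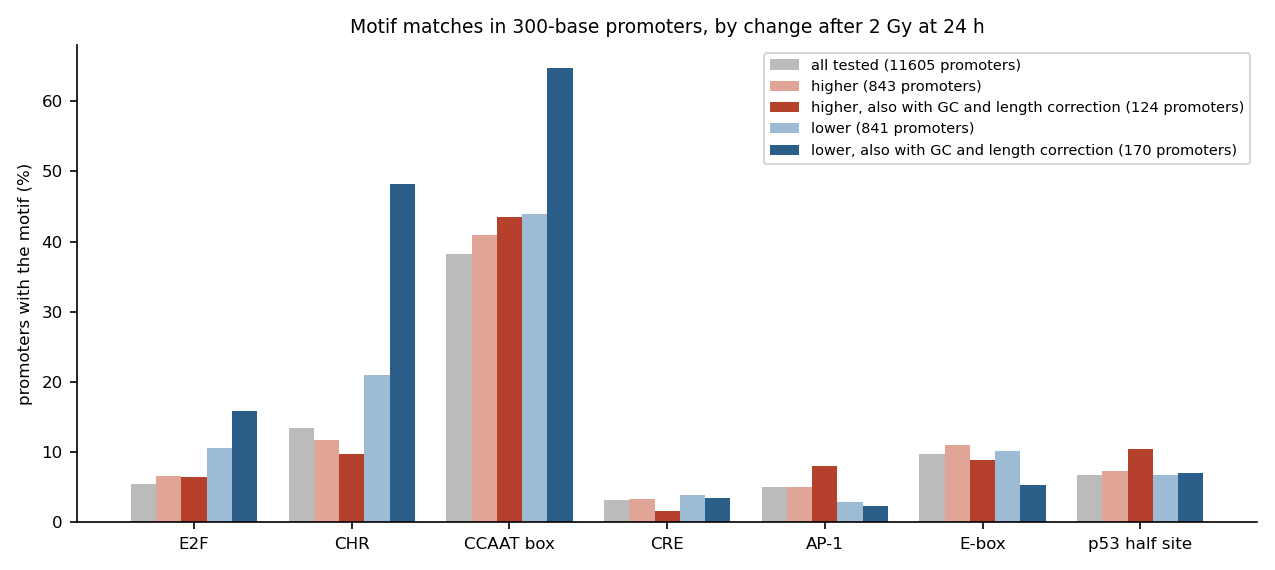
Share of promoters (y axis, %) with at least 1 match to each motif (x axis), for all tested genes (grey), genes that rose (light and dark red, the dark bars for those also called with the GC and length correction) and genes that fell (light and dark blue, likewise). The dark blue bars stand out at the CHR element (48.2%) and the CCAAT box (64.7%).

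Of 13 mitochondrially encoded genes 5 were downregulated (38.5%, against 6.69% of all genes), or 2 with the GC and length correction, with a median log2 fold change of −0.86 and *mt-Nd5*, *mt-Co1* and *mt-Cytb* at −0.98, −0.75 and −0.88. These RNAs made up 2.17%, 4.97%, 1.90% and 3.65% of the counts in the mock libraries and 0.947%, 2.09%, 1.91% and 2.18% after 2 Gy, so that pair 3 showed no fall. Their median after 0.1 Gy, against the same mock libraries, was −0.60, and at 6 h after 2 Gy it was 0.50. *Gm42418*, a locus that collects ribosomal RNA reads, took 0.886% to 10.4% of the counts in the mock libraries and 0.364% to 7.3% after 2 Gy. Of 349 Zfp genes, 64 were downregulated (18.3%, against 6.69% of all genes) and 8 upregulated (2.29%, against 6.53%), with a median of −0.21, but with the GC and length correction 2 were lower, 1 was higher and the median was −0.06.

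At 6 h after 2 Gy, edgeR called 0 genes with the block, with 1101 at an unadjusted p under 0.05. The difference between the responses at 24 h and 6 h was tested over the libraries of both times, each with its own mock group. In this test 1143 genes (6.78%) differed. No GC and length correction was applied to it or to the test between the doses. At 6 h the genes that rose at 24 h had a median log2 fold change of −0.14 and those that fell 0.13. These signs are opposite to those at 24 h and widen the difference. The genes below were mostly named by their 24 h values, which also enter it. *Mt2* had the log2 fold change −0.64 at 6 h, and its response at 24 h was higher by 2.01 (SE 0.32, edgeR adjusted p = 0.0226). *Pcsk1n* differed by 1.67 (SE 0.277, edgeR adjusted p = 0.0303) and *Jund* by 1.43 (SE 0.283, edgeR adjusted p = 0.0335). *Rrm2* was at −0.10 at 6 h and its response at 24 h was lower by 0.98 (SE 0.131, edgeR adjusted p = 0.0132). Of the 14 p53 targets called at 24 h, 2 differed between the times. *Bax* was at −0.08 at 6 h and its response at 24 h was higher by 0.91 (SE 0.225, edgeR adjusted p = 0.0408), and that of *Ak1* by 0.59 (SE 0.16, edgeR adjusted p = 0.0467). *Cdkn1a* had log2 fold changes of 0.67 at 6 h and 0.57 at 24 h (difference −0.09, SE 0.135, edgeR adjusted p = 0.683), and *Sesn2* had 0.55 and 0.54 (difference 0.01, SE 0.158, edgeR adjusted p = 0.986). *Pidd1* was at 0.74 and 0.52 (difference −0.21, SE 0.173, edgeR adjusted p = 0.435). The median of the p53 list at 6 h was 0.36.

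The dose of 0.1 Gy at 24 h was compared with the same mock libraries, so that both fold changes share them. edgeR called 379 genes higher (2.34%) and 728 lower (4.5%) after 0.1 Gy, of which 4 and 30 changed at least 2-fold. The paper reports no differentially expressed genes after this dose. This comparison was fitted only with the replicate block and without the GC and length correction. The genes that rose after 2 Gy had a median log2 fold change of 0.37 after 0.1 Gy, and *Mt2* was at 1.09, *Scand1* at 1.01, *Pcsk1n* at 0.97 and *Jund* at 0.78. Tested directly, 2 Gy exceeded 0.1 Gy in 4 genes (0.0243%) and lay below it in 104 (0.632%). The 4 were *Svop* (difference 0.96, SE 0.115, edgeR adjusted p = 0.00389), *Dcxr* (0.59, SE 0.112, edgeR adjusted p = 0.0269), *Ckmt1* (0.69, SE 0.135, edgeR adjusted p = 0.0324) and *Celf5*, a neuronal RNA-binding protein (0.46, SE 0.0921, edgeR adjusted p = 0.0364). For *Mt2* the difference was 0.25 (SE 0.208, edgeR adjusted p = 1). *Phlda3* (0.34, SE 0.113, edgeR adjusted p = 0.45) and *Cdkn1a* (0.34, SE 0.0985, edgeR adjusted p = 0.272) did not pass the test either. The p53 list had a median of 0.02 after 0.1 Gy and of 0.24 in the difference between the doses. Among the genes that fell, *Rrm2* was lower after 2 Gy than after 0.1 Gy by 0.84 (SE 0.0941, edgeR adjusted p = 0.00215), *Tpx2* by 0.60 (SE 0.0874, edgeR adjusted p = 0.00597) and *Hmgb2* by 0.68 (SE 0.092, edgeR adjusted p = 0.00531).

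**Figure D5:**
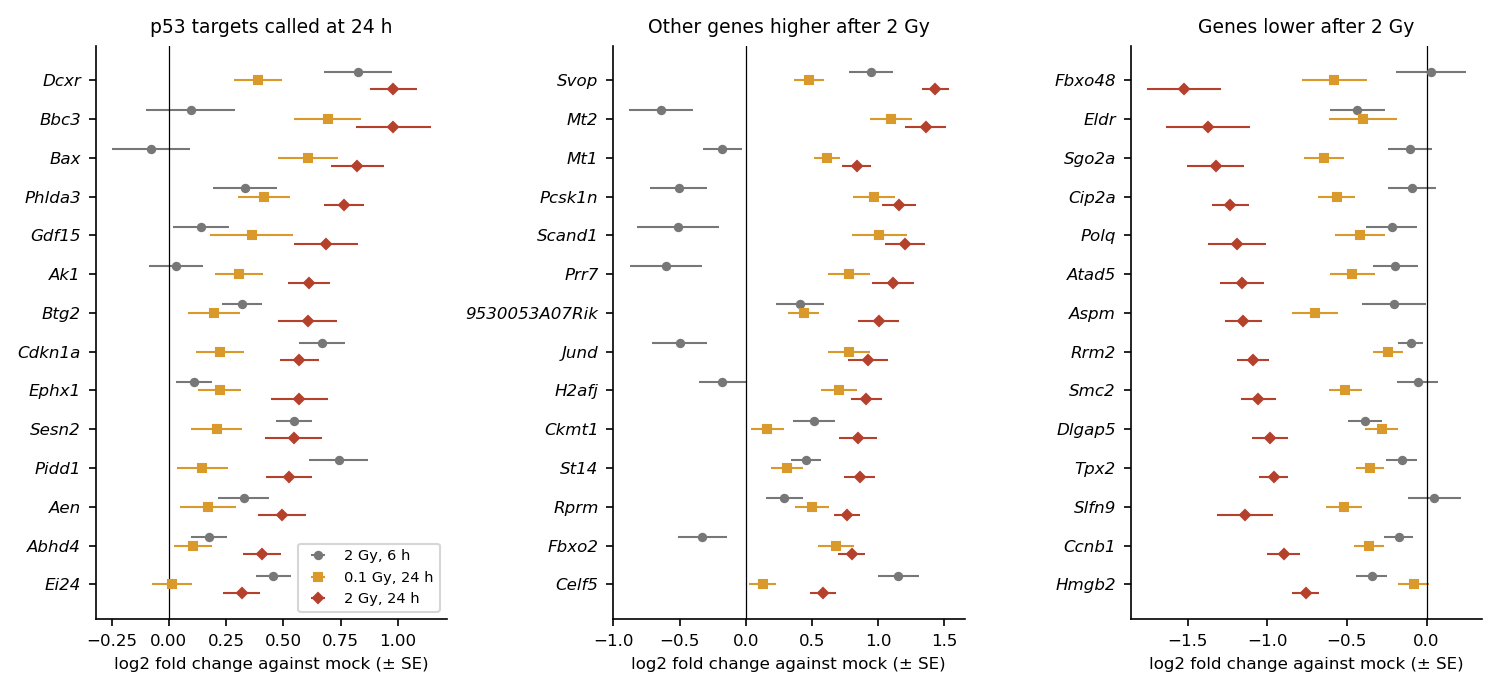
Fitted log2 fold changes against mock (x axis, ± SE) of p53 targets (left), other genes that rose (middle) and genes that fell (right), 6 h after 2 Gy (grey circles), 24 h after 0.1 Gy (orange squares) and 24 h after 2 Gy (red diamonds). Both 24 h values share the mock libraries. *Mt2* lies at −0.64 at 6 h and above 1 at both doses at 24 h, while *Cdkn1a* lies at 0.67 and 0.57 after 2 Gy at the 2 times.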

How the data were processed

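Polyadenylated RNA of 24 samples was sequenced as paired reads in 1 run, and the 8 libraries of 0 Gy and 2 Gy at 24 h were compared. The authors deposited raw counts per gene for each library, without normalization or pooling. The submitters' processing notes name mm10. The aligner, the counting tool and the use of strand are not given in the sources used here. Of 49315 genes, 48970 had a GC content, computed from GENCODE M21 transcripts.

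The count tests used edgeR 4.0.16 in R 4.3.3 (TMM, filterByExpr, quasi-likelihood test, Benjamini-Hochberg adjustment, threshold 0.05), with the replicate number as a block, which left 3 residual degrees of freedom. Same-numbered libraries deviated together from their group means (correlations 0.611, 0.882, 0.712 and 0.762, those between different numbers from −0.679 to 0.246). For this reason, and because the paper describes a fresh cell isolation per experiment, the numbers were taken to pair the samples. SE was derived from the F statistic. No 2 libraries of a group agreed within sampling noise (chi-square per gene at least 52.2). Single genes were compared in two-sided exact permutation tests over 35 divisions of the libraries. The fits were also run on simulated counts, and no outcome of that run is used here. DESeq2 1.42.0, limma 3.58.1, other scalings and filters, a correction for GC content and length by splines with 5 degrees of freedom, larger sets of libraries and leaving out each pair were the alternatives. The counts of list members under these settings were added after seeing the data.

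The members and the gene lists were chosen with earlier results of these data known, and lists were given no test. The text names called list members, genes of the study's tables and genes among the 15 risers and 8 fallers with the largest change or the smallest adjusted p outside these tables, given at least 1 CPM, the same direction in 4 of 4 pairs and a call also with the GC and length correction (153 risers and 142 fallers qualified). *Mt3*, *Celf5*, *Rprm* as a p53 target and list members that did not pass the test without the correction were named after their values were seen. Precision is limited by the number of libraries. The result of 1 list member is not reported here.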

Additional observations from a re-analysis of the deposited data

Results flagged for a closer look

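Of 118 groups of 4 libraries tested over the named genes, 25 held a library far from the other 3, where chance flags about 1 group in 20. The genes share libraries, so the flags are not independent. Mock library 2 stood apart for *Svop* (28.4 CPM), *Matn4* (6.55 CPM), *St14* (23.1 CPM) and *Ckmt1* (15.6 CPM), as the highest value of its group. Mock library 3 stood apart for *Ccdc85b* (65.7 CPM), *Uqcr11* (55.0 CPM) and *Gfap* (507 CPM), as the highest value of its group. Irradiated library 2 stood apart for *Matn4* (13.0 CPM), *Ckmt1* (22.2 CPM), *Celf5* (60.3 CPM) and *Rrm2* (52.8 CPM), as the highest value of its group. Irradiated library 3 stood apart for *Scand1* (50.1 CPM), *Pcsk1n* (111 CPM), *Jund* (212 CPM), *Ccdc85b* (103 CPM), *H2afj* (108 CPM), *Romo1* (47.5 CPM), *Grcc10* (93.1 CPM), *Uqcr11* (101 CPM), *Rplp2* (356 CPM), *Ino80b* (53.3 CPM), *Fbxo2* (372 CPM), *Ephx1* (602 CPM) and *Gfap* (786 CPM), as the highest value of its group. Irradiated library 4 stood apart for *Abhd4* (334 CPM), as the lowest value of its group.

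For 36 of the 59 named genes the response to 2 Gy differed between 24 h and 6 h at an edgeR adjusted p under 0.05. Over all genes 6.78% differed. The named genes were mostly chosen by their 24 h values, which also enter this difference, so that a high share was built in. In log2 units, the response at 24 h lay above that at 6 h for *Abhd11os* (1.77), *Mt2* (2.01), *Mt1* (1.02), *Mt3* (1.21), *Scand1* (1.72), *Pcsk1n* (1.67), *Prr7* (1.73), *Matn4* (1.05), *Jund* (1.43), *Ccdc85b* (1.54), *H2afj* (1.09), *Gm45774* (1.00), *Romo1* (1.32), *Grcc10* (1.35), *Nat14* (1.15), *Uqcr11* (1.08), *Rplp2* (1.12), *Ino80b* (1.15), *Fbxo2* (1.14), *Bax* (0.91), *Ak1* (0.59), *H2-D1* (0.95), *H2-T23* (0.87) and *Apoe* (1.03). It lay below for *Fbxo48* (−1.55), *Sgo2a* (−1.22), *Cip2a* (−1.14), *Polq* (−0.96), *Atad5* (−0.96), *Aspm* (−0.94), *Slfn9* (−1.18), *Tpx2* (−0.80), *Rrm2* (−0.98), *Smc2* (−0.99), *Dlgap5* (−0.59) and *Ccnb1* (−0.71).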

How the results depend on the processing

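With no replicate block edgeR called 0 genes in either direction, at least 2-fold or not, 0 between the times (827 at an unadjusted p under 0.05) and 0 between the doses (227 at an unadjusted p under 0.05), while DESeq2 without the block called 2 genes higher, 98 lower and 2 higher at least 2-fold. With the block, DESeq2 called 15 genes higher at least 2-fold, 2469 between the times and 174 between the doses. No filter on low counts gave 1558 higher, 53 of them at least 2-fold, and a minimum of 10 counts in every library gave 14 at least 2-fold. With the correction for GC content and length, 215 were higher (6 at least 2-fold) and 250 lower (51 at least 2-fold). All 24 libraries gave 1678 higher, 62 of them at least 2-fold, and 1738 lower. At an adjusted p under 0.01, 45 were higher, 6 at least 2-fold, and 107 lower. Leaving out 1 pair gave 9 to 2674 higher, 60 to 2617 lower, 5 to 80 higher at least 2-fold and 53 to 129 lower at least 2-fold, each lowest without replicate 2 and highest without replicate 3. The other counts over all genes in these comparisons stayed within 1.5 times. Counts over lists moved further. With the GC and length correction, 7 respiratory chain genes in place of 17 and 8 p53 targets in place of 14 were higher, and 11 genes of homologous recombination in place of 21 were lower. With no filter, 32 respiratory chain genes were higher, and in DESeq2 with no replicate block 16 S phase genes in place of 33 were lower. Of 942 values of 59 named genes under the alternatives, 0 were reversed and 210 were no longer past the threshold, 59 of them with no replicate block. The cause of these changes was not tested.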
